A study of Mus musculus with 7 samples.

Results

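The 8 genes described here, Cacna1a, Cacna1b, Cacna1c, Cacna1d, Cacna1e, Cacna1g, Cacna1h and Cacna1i, code for the pore-forming subunits of voltage-gated calcium channels. They were chosen by symbol, and all 8 have rows in the deposited splicing tables. The whole tables hold 6117 genes with at least 1 splicing event at unique coordinates in both replicates. The pore genes account for 23 of the 11814 such events, with 6 in Cacna1c, 4 each in Cacna1a and Cacna1e, 3 in Cacna1b, 2 each in Cacna1g and Cacna1i, and 1 each in Cacna1d and Cacna1h. In the mm10 assembly the RefSeq gene models place Cacna1a (ENSMUSG00000034656) on chromosome 8 from 84338631 to 84640251, Cacna1b (ENSMUSG00000004113) on chromosome 2 from 24603860 to 24763200, Cacna1c (ENSMUSG00000051331) on chromosome 6 from 118587240 to 119197384 and Cacna1d (ENSMUSG00000015968) on chromosome 14 from 30039941 to 30491156. They place Cacna1e (ENSMUSG00000004110) on chromosome 1 from 154390806 to 154884785, Cacna1g (ENSMUSG00000020866) on chromosome 11 from 94408391 to 94474400, Cacna1h (ENSMUSG00000024112) on chromosome 17 from 25374285 to 25436334 and Cacna1i (ENSMUSG00000022416) on chromosome 15 from 80287238 to 80398292.

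RNA came from wild-type cortical neurons of ICR mouse embryos at day 16, cultured to day 11. The 2 KCl libraries are from cultures bathed for 10 min in medium mixed with a depolarizing buffer, with KCl at 50 mM, and the 2 control libraries are from cultures given a NaCl buffer in its place. Both were returned to their old medium and harvested 24 h later. H3K9me3, a mark on histones of silenced chromatin, was mapped by immunoprecipitation in the hippocampus of wild-type C57BL/6 mice aged 3 months. The 2 enriched libraries are from mice kept for 24 h in a large cage with toys and back in a home cage for 1 week before sampling, and the 1 home-cage library is from mice left in the home cage. Whether replicates came from separate cultures, and whether animals were pooled, is not in the labels. The p-values therefore reflect the spread among these libraries alone, which may be technical.

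A voltage-gated calcium channel opens when the membrane depolarizes and lets calcium into the cell. Its pore subunit sets the channel type. The Cav2 subunits of Cacna1a (P/Q-type), Cacna1b (N-type) and Cacna1e (R-type) serve transmitter release at nerve terminals, the Cav1 subunits of Cacna1c and Cacna1d (L-type) couple activity at the cell body and dendrites to gene expression, and the Cav3 subunits of Cacna1g, Cacna1h and Cacna1i (T-type) open near rest and serve burst firing. All of these genes are spliced in many forms, and auxiliary β, α2δ and γ-like subunits accompany the pore.

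The sequences just upstream of 4 transcription starts are shown because H3K9me3 around them, described further on, stood highest or lowest among the pore gene starts in enriched replicate 1. They are from RefSeq on GRCm38.p6, the assembly called mm10 in the labels, read 5′ to 3′ on the gene's strand and ending at the base before the start. Capitals mark GGGCGG, the core of an Sp1 site, and TGACG, the core of a CREB site, on either strand, so that CGTCA is TGACG read on the other strand.
Cacna1b, chr2:24763153-24763402, minus strand: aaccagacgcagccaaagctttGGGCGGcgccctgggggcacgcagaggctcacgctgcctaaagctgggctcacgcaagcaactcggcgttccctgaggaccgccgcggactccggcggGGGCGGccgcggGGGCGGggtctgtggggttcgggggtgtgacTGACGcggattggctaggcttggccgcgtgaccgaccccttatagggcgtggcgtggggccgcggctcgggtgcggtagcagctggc
Cacna1e, internal start, chr1:154725921-154726170, minus strand: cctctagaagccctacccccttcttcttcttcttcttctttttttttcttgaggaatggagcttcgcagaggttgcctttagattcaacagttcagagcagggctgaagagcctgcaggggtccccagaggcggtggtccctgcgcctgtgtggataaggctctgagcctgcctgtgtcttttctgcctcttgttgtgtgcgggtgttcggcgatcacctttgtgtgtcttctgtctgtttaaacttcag
Cacna1i, chr15:80286988-80287237, plus strand: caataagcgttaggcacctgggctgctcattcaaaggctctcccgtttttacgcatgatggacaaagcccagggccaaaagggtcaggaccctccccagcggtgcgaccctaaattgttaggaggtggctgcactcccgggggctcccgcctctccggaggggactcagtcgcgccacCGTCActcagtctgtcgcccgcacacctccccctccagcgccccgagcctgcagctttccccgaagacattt
Cacna1c, internal start, chr6:118757975-118758224, minus strand: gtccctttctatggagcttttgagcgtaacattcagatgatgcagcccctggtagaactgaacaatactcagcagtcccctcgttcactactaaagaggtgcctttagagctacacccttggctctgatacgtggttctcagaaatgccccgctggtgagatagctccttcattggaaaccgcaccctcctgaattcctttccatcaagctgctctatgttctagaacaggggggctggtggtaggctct
The Cacna1b stretch holds 3 copies of GGGCGG and 1 of TGACG and is 72.0% G and C, and the Cacna1i stretch holds 1 TGACG and is 62.4% G and C. Neither motif is in the stretches of the internal starts of Cacna1e and Cacna1c, which lie inside the gene models given above, at 52.0% and 50.4% G and C, against a median of 52.4% over 32851 promoter stretches of 250 bases. GGGCGG is in 32.7% of all these stretches and TGACG in 17.8%. The full palindrome TGACGTCA, which contains TGACG, is in 1.55% of them and in none of the 8 stretches listed for 5 of the pore genes. The table of promoters has no entry for Cacna1a, Cacna1g or Cacna1h.

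Reads over the pore genes were fewer in KCl than in control in most rows. Of the rows with a pore gene symbol, 30 of 35 in replicate 1 and 51 of 53 in replicate 2 held fewer reads in the KCl library than in the control library of the same number, against 44.1% and 56.8% of all rows. Depth differed less, with 3643165 and 4666850 event reads in the KCl libraries and 3566066 and 5385345 in the control libraries. The total over the rows of Cacna1b, which overlap, was 53 reads in KCl against 432 in control in replicate 1 and 468 against 1699 in replicate 2. For Cacna1i it was 2 against 58 and 13 against 78. Cacna1d had the fewest rows, 1 in each table, with 3 against 2 reads and 33 against 59. Of the 88 rows, 18 share their coordinates with another row and cannot be told apart, 46 give the 23 events that both tables list once, and 24 are unique in 1 table only.

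To set genes beside their own controls without counting overlapping events more than once, the event with the most reads in each gene was taken as that gene's level. Values are counts scaled to library size, in CPM, after TMM scaling (trimmed mean of M values). The windows counted differ between genes, so levels are compared between libraries and not between genes. Summed over the 8 genes the level was 90.4 and 163 CPM in KCl, against 245 and 369 CPM in control, so that both KCl libraries lay under both controls. Fewer neurons and less of these RNAs per neuron cannot be told apart in bulk RNA.

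Among the presynaptic Cav2 genes, Cacna1b, whose N-type channel triggers transmitter release, had 7.53 and 26.0 CPM in KCl, against 58.5 and 78.3 CPM in control. Both KCl libraries were below both controls, and the log2 fold change was -2.01 (SE 0.64, unadjusted p = 0.0159 and adjusted p = 0.352 by edgeR's quasi-likelihood test). Cacna1e, the R-type pore gene, had 3.42 and 13.6 CPM in KCl, against 25.1 and 24.1 CPM in control. The controls lay close together, the KCl libraries were both lower and far apart, and the log2 fold change was -1.50 (SE 0.68). Cacna1a, the P/Q-type pore gene, had 27.4 and 50.4 CPM in KCl, against 46.7 and 95.0 CPM in control. Its groups overlapped, since KCl replicate 2 lay above control replicate 1, with a log2 fold change of -0.86 (SE 0.55).

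Of the L-type genes, Cacna1c had 8.21 and 10.2 CPM in KCl, against 29.2 and 29.5 CPM in control. The 2 libraries of each group lay close together and the groups did not overlap, with a log2 fold change of -1.66 (SE 0.50, unadjusted p = 0.0121 and adjusted p = 0.352, edgeR). With all events of the gene summed instead, the log2 fold change was -0.98 for Cacna1c and -2.12 for Cacna1e. Cacna1d had 2.05 and 18.7 CPM in KCl, against 1.39 and 31.7 CPM in control. Here the replicate numbers differed more than the groups, and the log2 fold change of -0.67 had an SE of 1.25. It was 0.17 without KCl replicate 1 and 2.85 without control replicate 2.

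The T-type gene Cacna1i had the largest difference of the 8, with 0.685 and 2.26 CPM in KCl, against 21.6 and 18.8 CPM in control. These rest on 1 and 4 reads in KCl, against 31 and 35 in control. Both KCl libraries were below both controls, and the log2 fold change was -3.66 (SE 0.69, unadjusted p = 0.0011 and adjusted p = 0.352, edgeR). Cacna1g had 3.42 and 2.83 CPM in KCl, against 5.57 and 13.9 CPM in control, on 5 and 5 reads against 8 and 26. Both KCl libraries were lower, with a log2 fold change of -1.65 (SE 0.69). Cassette rows of its 135-base exon share coordinates and were left out. They held up to 15 and 38 reads in KCl, against 48 and 99 in control. Cacna1h had 37.7 and 39.1 CPM in KCl, against 57.1 and 77.8 CPM in control, a log2 fold change of -0.81 (SE 0.44) between groups that did not overlap.

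**Figure D1:**
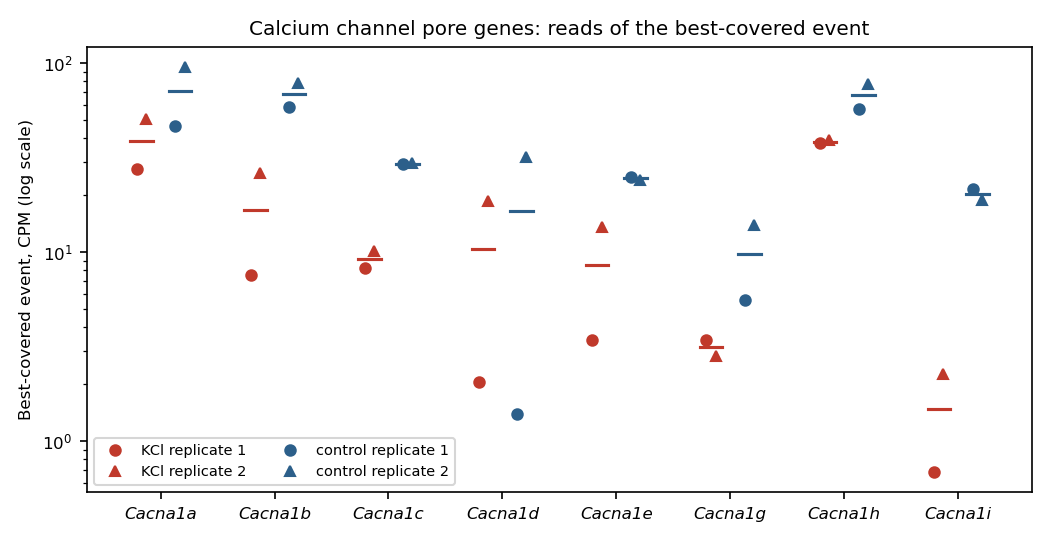
Level of each calcium channel pore gene in the 4 RNA libraries, in CPM on a log axis. Levels are reads of its best-covered splicing event among those at unique coordinates in both replicates. Red symbols are KCl and blue symbols control, circles are replicate 1 and triangles replicate 2, and short lines are means of 2 libraries. Red lies below blue without overlap in 6 of 8 genes. In Cacna1a and Cacna1d the groups overlap.

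No pore gene passed the test over all genes. edgeR's quasi-likelihood test called 0 of 8 at an adjusted p under 0.05, and 0% of the 6117 genes tested. At an unadjusted p under 0.05, 4 of 8 were lower in KCl (Cacna1b, Cacna1c, Cacna1g and Cacna1i), against 7.31% of all genes, and 6 of 8 were lower with groups that did not overlap, against 21.2% of all genes. The median log2 fold change was -1.57 over the 8 and 0.04 over all genes. With all events of each gene summed instead, the median was -1.19 over the 8 and 0.02 over all genes. DESeq2 called 1, Cacna1i, with an adjusted p of 0.0342, and 71 of the 6117 genes, and limma called 0. With a term for the replicate number edgeR called more, as given in the last section. Runs without 1 library left 1 library in a group, so only their effect sizes are given. The median of the 8 lay between -2.39 without KCl replicate 2 and -1.11 without KCl replicate 1.

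Markers of cell types also differed between the libraries, although edgeR called 0 of them at an adjusted p under 0.05. All 7 measured neuron markers of a list of 13 were lower in KCl with no overlap between groups, against 21.2% of all genes. Together they stood at 661 and 2433 CPM in KCl, against 7365 and 7240 CPM in control. Stmn2, which codes for a microtubule-binding protein of growing neurites, held most of this sum, with 339 and 1461 CPM in KCl, against 5286 and 4546 CPM in control. The 5 measured markers of the oligodendrocyte lineage, of 12, were all higher, at 1997 and 1094 CPM in KCl, against 317 and 341 CPM in control. The 2 measured mesenchymal markers, of 7, stood at 2890 and 2235 CPM in KCl, against 429 and 514 CPM in control. Tagln held most of this sum, with 2750 and 2128 CPM in KCl, against 405 and 472 CPM in control. The 5 astrocyte markers, of 9, stood at 4134 and 3060 CPM in KCl, against 2977 and 2308 CPM in control. Aldoc held most of the astrocyte sum and overlapped between groups, with 2694 and 2057 CPM in KCl, against 2272 and 1611 CPM in control. The 4 progenitor markers, of 7, stood at 612 and 688 CPM in KCl, against 198 and 391 CPM in control. Of 5 endothelial and mural markers 1 was measured, at 11.6 and 4.53 CPM in KCl and 2.09 and 3.22 CPM in control, and none of the 6 microglial markers has an event in both tables. The neuron markers Tubb3, Syn1, Gad2, Slc17a7, Slc17a6 and Slc32a1 have no such event either. The part of these cell types in the pore gene levels was not tested.

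The genes whose pattern over the 4 libraries was nearest to the mean of the 8 pore genes, by Euclidean distance of centred log2(CPM + 1) values among 5765 genes, were Epha5 (distance 0.157), an ephrin receptor of axon guidance, Lin7a (0.161), a scaffold protein of synapses, and Pcdh17 (0.170), a protocadherin. Epha5 had 47.2 and 102 CPM in KCl, against 146 and 230 CPM in control.

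The other genes of the channel complex and its pathway were measured in part. Of 14 auxiliary subunit genes 7 had a level, and edgeR called 0, with 5 lower and 2 higher in KCl and a median log2 fold change of -1.04. Cacnb3, a cytoplasmic β subunit that brings the pore to the membrane, had 56.8 and 70.7 CPM in KCl, against 157 and 105 CPM in control (log2 fold change -1.04, SE 0.44). Cacnb4, the β subunit mutated in the lethargic mouse, had 5.48 and 3.96 CPM in KCl, against 9.75 and 12.3 CPM in control. Both β subunit genes were lower in KCl without overlap, as was Cacng8, a γ-like subunit that also serves AMPA receptors. Cacng8 had 32.2 and 66.2 CPM in KCl and 84.3 and 137 CPM in control. In total 3 of the 7 were lower without overlap, against 21.2% of all genes. Cacna2d2, an α2δ subunit, overlapped, with 2.05 and 0.566 CPM in KCl and 1.39 and 10.2 CPM in control. Of the 3 other pore genes listed, Nalcn, the sodium leak channel, was measured, with 17.8 and 31.1 CPM in KCl, against 40.4 and 36.5 CPM in control.

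Of 27 partners and effectors of the channels, 20 had a level, 15 of them lower in KCl, with a median log2 fold change of -0.89. edgeR called 0, and 8 were lower at an unadjusted p under 0.05, against 7.31% of all genes. Rims1, an active zone protein that tethers Cav2 channels near vesicles, had 8.90 and 14.7 CPM in KCl, against 53.6 and 60.1 CPM in control (log2 fold change -2.25, SE 0.50). Syt1, the calcium sensor of fast release and also one of the neuron markers, had 48.6 and 126 CPM in KCl, against 413 and 517 CPM in control (log2 fold change -2.41, SE 0.55). Unc13a, a vesicle priming factor, and Kcnma1, the calcium-activated BK potassium channel, had log2 fold changes of -2.06 (SE 0.53) and -2.66 (SE 0.69). All 4 were lower in both KCl libraries than in either control. Of the 20 genes, 11 were lower without overlap, against 21.2% of all genes. Another 1 was higher without overlap, against 1350 of all 6117 genes.

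Levels of the single events were also compared. They are not separate measurements from the gene levels, since the event behind each gene's level is among them and some events share reads. Of the 23 events, 21 were lower in KCl, with a median log2 fold change of -1.38, against 0.02 over all events. edgeR called 0 of 23 event levels, and 0% of 11814. At an unadjusted p under 0.05, 10 were lower, against 6.85% of all events, and 14 were lower without overlap, against 21.4% of all events. DESeq2 and limma also called 0 of the 23, while edgeR with a term for the replicate number called some, as given in the last section. When 1 library was left out, the median of the 23 lay between -2.40 without KCl replicate 2 and -0.814 without KCl replicate 1. The 2 events that were higher, both in Cacna1c, had 8 or fewer reads in each library.

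**Figure D2:**
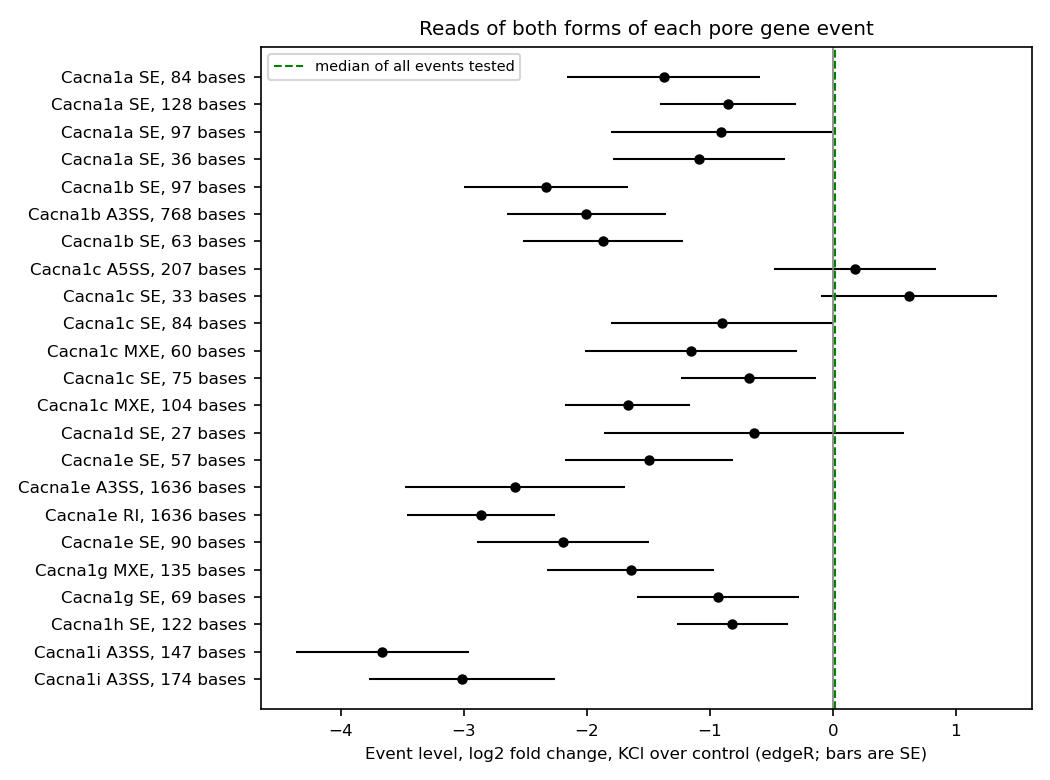
Log2 fold change (KCl over control) of the reads of both forms of each of the 23 pore gene events, with SE bars from edgeR. Labels give the length of the exon listed first for each event. The dashed line is the median of all events tested, 0.02. Points lie to the left of 0 in 21 of 23 events. Farthest left are the Cacna1i events and the retained intron and 3′ splice site of Cacna1e.

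The inclusion share of each event, its inclusion reads over the reads of both forms, was then compared event by event. It is not corrected for the length of each form and is compared only between libraries of the same event. Of the 23 events 21 had enough reads to be tested. edgeR called 0 of 21, and 0% of 10088 events, with a smallest adjusted p of 0.457 among the 21, and DESeq2 and limma also called 0 of them. At an unadjusted p under 0.05, 2 had a lower share in KCl, against 4.97% of all events, and 1 a higher share, against 4.23%. Shares did not overlap between groups in 6 events that were lower in KCl, against 19.5% of all events, and in 3 that were higher, against 21.2%. Among these, the Cacna1h exon and the 174-base Cacna1i event had 0 reads of 1 form in both KCl libraries. They reached the minimum of reads for the test through control alone. The event tables hold few reads of these genes, and 33 of the 92 shares, 4 for each event, rest on fewer than 10 reads. For the events that matter most 95% Wilson intervals are given, which cover counting error only.

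In Cacna1e a cassette exon of 57 bases (chromosome 1, 154473857 to 154473913, mm10) was included in 1 of 5 and 19 of 24 reads in KCl, against 33 of 36 and 43 of 45 reads in control. The shares were 20% (interval 3.62 to 62.4%) and 79.2% (59.5 to 90.8%) in KCl, against 91.7% (78.2 to 97.1%) and 95.6% (85.2 to 98.8%) in control. Both KCl shares were lower, but they lay far apart, and the log2 odds ratio was -3.05 (SE 1.27, unadjusted p = 0.0262 and adjusted p = 0.457, edgeR). In the authors' deposited table this exon had the smallest p of the pore gene rows, 0.00599, with an FDR of 0.181, in replicate 1. The other Cacna1e events lie together at 154486498 to 154488133, where a retained intron, an alternative 3′ splice site and a cassette exon of 90 bases share reads. The skipping reads of the intron and the inclusion reads of the exon are the same numbers in all 4 libraries, 1 and 5 in KCl and 25 and 8 in control. Their shares overlapped between groups.

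In Cacna1b an alternative 3′ splice site, listed with an exon of 768 bases (chromosome 2, 24678876 to 24679643), had inclusion in 11 of 11 and 44 of 46 reads in KCl, against 66 of 84 and 127 of 146 reads in control. The tables list 1 exon for such an event, so the distance between its splice sites is not given here. The shares were 100% (interval 74.1 to 100%) and 95.7% (85.5 to 98.8%) in KCl, against 78.6% (68.7 to 86.0%) and 87.0% (80.6 to 91.5%) in control. Both KCl shares were higher, with a log2 odds ratio of 2.36 (SE 1.13, unadjusted p = 0.0491 and adjusted p = 0.540, edgeR). A cassette exon of 63 bases in the same gene (24682976 to 24683038) was in 0 of 11 and 2 of 46 reads in KCl, against 7 of 73 and 11 of 138 reads in control. That is 4.35% in KCl replicate 2, against 9.59% and 7.97% in control, and 0 of 11 reads allows a share of up to 27.3%. These events are not separate measurements, since the inclusion reads of the 3′ splice site equal the skipping reads of the exon in all 4 libraries. A cassette exon of 97 bases (24625238 to 24625334) had 6 of 6 and 18 of 22 inclusion reads in KCl and 41 of 44 and 94 of 102 in control, with shares that overlapped.

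In Cacna1a 4 cassette exons were measured on chromosome 8. The exon of 128 bases (84612285 to 84612412), whose skipping shifts the reading frame, had inclusion shares of 97.5% and 93.3% in KCl, against 100% and 98.9% in control, on 40 and 89 reads against 67 and 177. Both KCl shares were lower, by few reads, with 1 and 6 skipping reads in KCl and 0 and 2 in control (log2 odds ratio -2.64, SE 1.26, unadjusted p = 0.0501, edgeR). The exon of 36 bases (84635549 to 84635584) was mostly skipped, with inclusion in 0 of 23 and 9 of 69 reads in KCl and in 6 of 40 and 12 of 168 reads in control, so its shares overlapped. The exon of 84 bases (84594137 to 84594220) was almost always included, in all 12 and 43 reads in KCl and in 24 of 25 and 126 of 128 in control, and had too few skipping reads to test. The exon of 97 bases (84615574 to 84615670) had 94.4% and 91.8% in KCl and 91.7% and 98.9% in control. It is one of a pair of exons of 97 bases that are known as alternatives in the part of the protein with an EF-hand-like fold. In replicate 2 the pair was listed as mutually exclusive, and the other exon (84614695 to 84614791) took 1 of 79 reads in KCl and 5 of 187 in control.

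Cacna1c held the most events, all on chromosome 6, with few reads in each. The pair of mutually exclusive exons of 104 bases (118741871 to 118741974 and 118742265 to 118742368) is the one that codes for the pore-lining segment of the first domain and carries the Timothy syndrome site in human. Here inclusion counts the exon that comes first in the transcript, as it did in 296 of 296 rows of genes on the minus strand that could be checked. That exon took 9 of 12 and 17 of 18 reads in KCl, against 41 of 42 and 51 of 55 reads in control. The shares of 75% and 94.4% in KCl overlapped those of 97.6% and 92.7% in control. A cassette exon of 75 bases (118715903 to 118715977) was in 3 of 12 and 2 of 21 reads in KCl, against 1 of 18 and 3 of 37 reads in control. Both KCl shares, 25.0% and 9.52%, were above the control shares of 5.56% and 8.11%, with a log2 odds ratio of 1.24 (SE 1.30). The other 4 events, a pair of 60 bases, exons of 84 and 33 bases and a 5′ splice site, had between 1 and 20 reads in each library, and their shares overlapped.

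The 27-base exon of Cacna1d (chromosome 14, 30050234 to 30050260) was in 1 of 3 and 26 of 33 reads in KCl, against 2 of 2 and 55 of 59 reads in control. Both KCl shares, 33.3% and 78.8%, were below the control shares of 100% and 93.2% (log2 odds ratio -2.47, SE 1.34). In Cacna1g a 69-base exon (chromosome 11, 94439709 to 94439777) was in 2 of 3 and 6 of 9 reads in KCl, against 10 of 11 and 11 of 12 reads in control, and a pair of mutually exclusive exons of 135 and 144 bases had shares that overlapped. The 122-base exon of Cacna1h (chromosome 17, 25377762 to 25377883) was in all 55 and 69 reads in KCl, against 81 of 82 and 142 of 145 reads in control. The groups did not overlap for any of these 3 cassette exons. Shares were lower in KCl in Cacna1d and Cacna1g and higher in Cacna1h. Over all events 19.5% were lower without overlap and 21.2% higher. The Cacna1h exon had 0 skipping reads in both KCl libraries and reached the minimum of reads through control alone. Its lack of overlap is therefore a description only.

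Cacna1i had a pair of alternative 3′ splice site events on chromosome 15. The event listed with an exon of 147 bases (80389702 to 80389848) had inclusion in 1 of 1 and 1 of 4 reads in KCl, against 30 of 31 and 31 of 35 reads in control. The KCl shares of 100% (interval 20.7 to 100%) and 25.0% (4.56 to 69.9%) lay on both sides of the control shares of 96.8% and 88.6%, although the unadjusted p was 0.0399 (log2 odds ratio -4.02, SE 1.82, adjusted p = 0.506, edgeR). The event with an exon of 174 bases (80390744 to 80390917) had inclusion in 0 of 1 and 0 of 5 reads in KCl, against 7 of 27 and 5 of 22 reads in control. For 0 of 5 reads the Wilson interval reaches 43.4%, so the difference from 25.9% and 22.7% in control was not detectable at this depth.

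**Figure D3:**
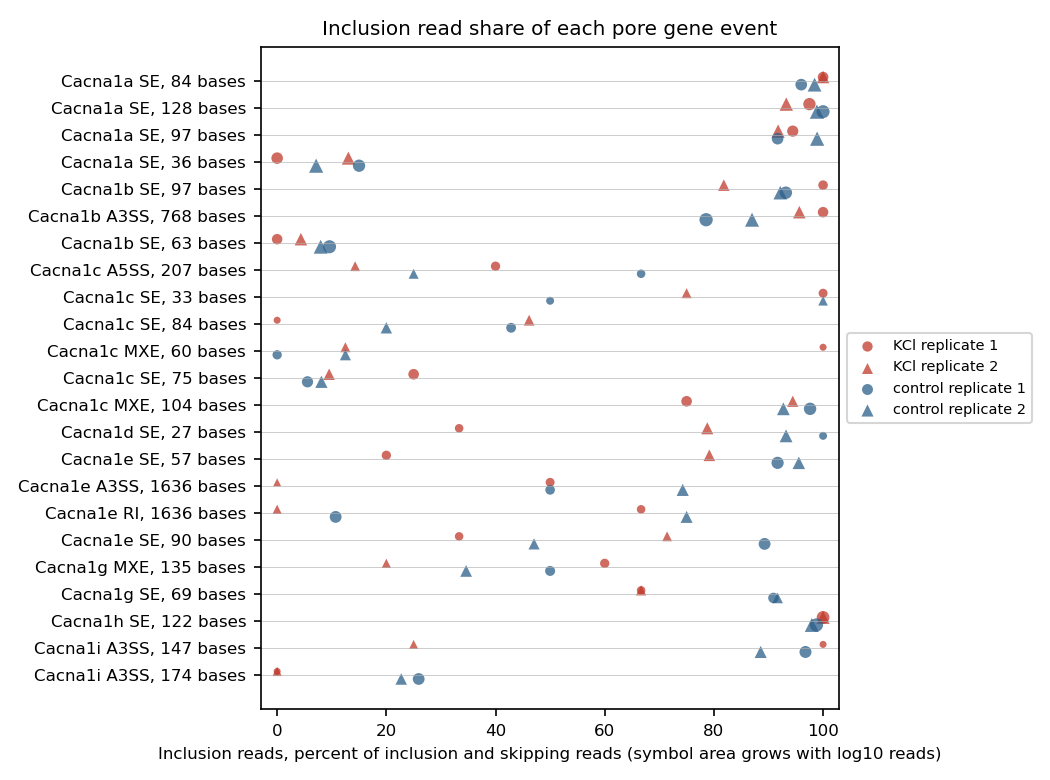
Percent of each event's reads that are inclusion reads, for each of the 23 pore gene events, with KCl in red and control in blue, replicate 1 as circles and replicate 2 as triangles, and symbol area growing with the log10 number of reads. Symbols of both groups lie close together near 100% in the 122-base exon of Cacna1h, while in the 3′ splice site of Cacna1b the control symbols stand at 78.6% and 87.0%, to the left of KCl. Libraries of the same group lie far apart in several events of Cacna1c and Cacna1e.

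Events unique in 1 table only compare 1 KCl library with 1 control library and have no replicate check. Most of them were exons that nearly all reads include. The 165-base exon of Cacna1a (84587045 to 84587209) was in all 183 reads in KCl and 476 of 477 in control in replicate 2, and the 132-base exon of Cacna1b (24697573 to 24697704) in all 25 reads in KCl and 230 of 231 in control in replicate 1. The event most unlike between the libraries was a 5′ splice site of Cacna1g (94425764 to 94425977), with inclusion in 2 of 2 reads in KCl and 0 of 11 in control in replicate 2, where the authors' deposited table gives p = 0.0188 and an FDR of 1. A 3′ splice site of the same gene (94459094 to 94459877) had 17 of 17 inclusion reads in KCl and 38 of 45 in control, a control share of 84.4% (interval 71.2 to 92.3%). The Cacna1g and Cacna1a items here were chosen after their values were seen, as was the Cacna1b exon.

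Over the distinct cassette exons of the pore genes in either table, 20 of 35 (57.1%) had a length divisible by 3 and so keep the reading frame, against 43.1% of the 18871 cassette exons in the tables. The authors' deposited table gives an FDR under 0.05 for 0 of 35 pore gene rows in replicate 1 and 0 of 53 in replicate 2, against 2.26% and 0.828% of all rows. Its unadjusted p was under 0.05 for 1 of the 35 rows in replicate 1 and 4 of the 53 in replicate 2, against 5.86% and 3.43% of all rows. These compare a KCl library with a control library and not the conditions.

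Splicing regulators that act on neuronal exons were measured in 19 of 24 genes listed. edgeR called 0 of their levels, 13 were lower and 6 higher in KCl, and the median log2 fold change was -0.58. Rbfox1, which with Rbfox3 (also a neuron marker) binds beside many neuronal exons, had 3.42 and 15.8 CPM in KCl, against 45.3 and 29.0 CPM in control. Rbfox3 had 25.3 and 111 CPM in KCl, against 146 and 305 CPM in control, and neither gene overlapped between groups. Of the 19 genes, 8 were lower without overlap, against 21.2% of all genes. Another 2 were higher without overlap, against 1350 of all 6117 genes. Celf5 and Khdrbs3, RNA-binding proteins enriched in the nervous system, had log2 fold changes of -1.44 (SE 0.45) and -1.09 (SE 0.39). Their part in the pore gene shares was not tested.

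In the hippocampus, H3K9me3 over the pore gene bodies stood near the level of the genome at large. The libraries held 13008562 and 8058236 fragments for enriched replicates 1 and 2 and 6187162 for the home cage, recovered from the deposited coverage. Levels are fragments per kb of gene body relative to the median 10 kb window of the same library, so that 1 is the typical window. No input library is among the samples, so the levels here and below are not corrected for background coverage. Across the 8 genes they ran from 0.885 to 1.21 in enriched replicate 1, from 0.941 to 1.39 in enriched replicate 2 and from 0.848 to 1.11 in the home cage. Their medians of 0.970, 1.04 and 0.940 in the same order of libraries lay beside medians of 0.994, 1.02 and 0.963 over all 24372 gene models. Clustered protocadherin genes, a known site of this mark in neurons, had medians of 4.16, 3.08 and 3.43 in the same libraries.

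Cacna1i had the highest level of the 8, with 1.21 and 1.39 in the enriched libraries, against 1.11 in the home cage, at the 72.3, 83.9 and 64.6 percentiles of gene models. Cacna1h had the lowest, with 0.885 and 0.941 in the enriched libraries, against 0.848 in the home cage. Cacna1c, the longest gene body at 610.1 kb, held 2762 and 1986 fragments in the enriched libraries, against 1320 in the home cage, which gives 0.963 (95% Poisson interval 0.928 to 1.00) and 1.05 (1.00 to 1.10) against 0.941 (0.891 to 0.993). For Cacna1a the levels were 1.08 and 1.18 against 1.05, for Cacna1b 0.976 and 1.03 against 0.939, and for Cacna1g 1.07 and 1.20 against 0.981. Cacna1d had 0.943 and 1.01 against 0.910, and Cacna1e 0.955 and 1.01 against 0.921. In each of the 8 genes both enriched values were above the home-cage value by this measure, as in 43.1% of all gene models, although with the scaling used for the test and without enriched replicate 2 the log2 ratio was -0.0076 for Cacna1a and -0.0089 for Cacna1c.

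**Figure D4:**
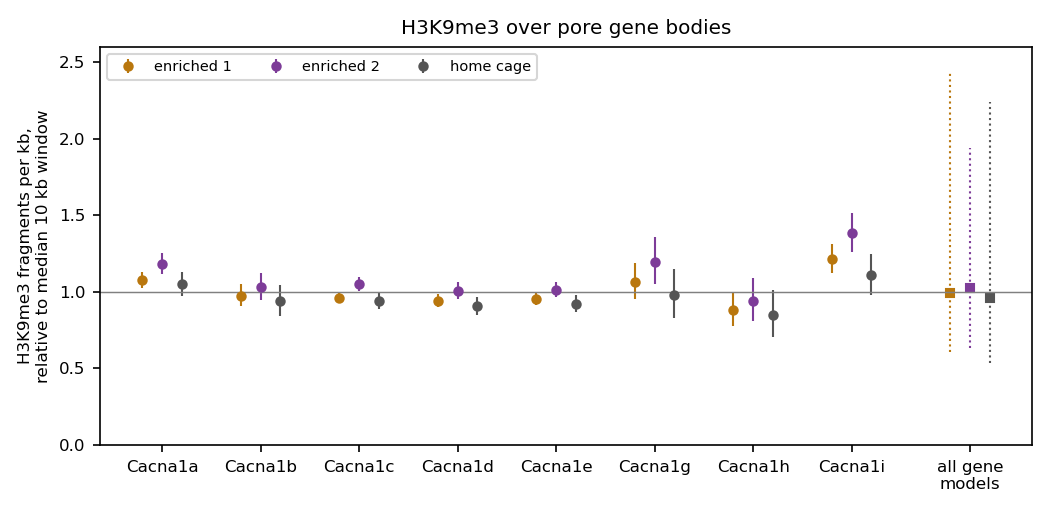
H3K9me3 fragments per kb of each pore gene body relative to the library's median 10 kb window, with enriched replicate 1 in orange, enriched replicate 2 in purple and the home cage in grey. Bars are 95% Poisson intervals of the counts, and squares with dotted lines are the median and the 5th to 95th percentile of all gene models. Points lie between 0.848 and 1.39, inside the range of most gene models.

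Between conditions the mark did not pass the test in any pore gene. The log2 ratios of enriched over home cage ran from 0.05 in Cacna1c to 0.18 in Cacna1i (SE 0.12 and 0.18), with an adjusted p of 1 in limma for all 8, and 0% of the 24372 gene models were called. At an unadjusted p under 0.05 there were 0 of 8, against 1.7% of all gene models. As linear ratios from the counts, Cacna1i had 1.13 (95% binomial interval 0.990 to 1.29) and Cacna1c 1.03 (0.973 to 1.10), and the intervals of all 8 genes held 1. With 1 home-cage library, that library is assumed to vary like the enriched ones.

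Within the gene bodies no 10 kb window of the 219 reached 2 times the typical level in all 3 libraries, against 1.49% of the 253876 windows of the genome. Finer bins, 40 along each gene, found short stretches that did. In Cacna1g the last bin, at the end with the higher coordinate, stood at 3.22 and 4.49 in the enriched libraries, against 2.11 in the home cage, on 25, 23 and 8 fragments. A bin of Cacna1i starting 91620 bases into the gene stood at 3.14 and 3.25 in the enriched libraries, against 2.98 in the home cage, and another, 8329 bases into the gene, at 2.15 and 2.21 in the enriched libraries, against 2.35 in the home cage. One of Cacna1b, 103571 bases from the lower-coordinate end, stood at 2.35 and 2.02 in the enriched libraries, against 2.40 in the home cage. The bins were picked for their level, so these values are a description, with no share of such bins over the genome beside them.

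**Figure D5:**
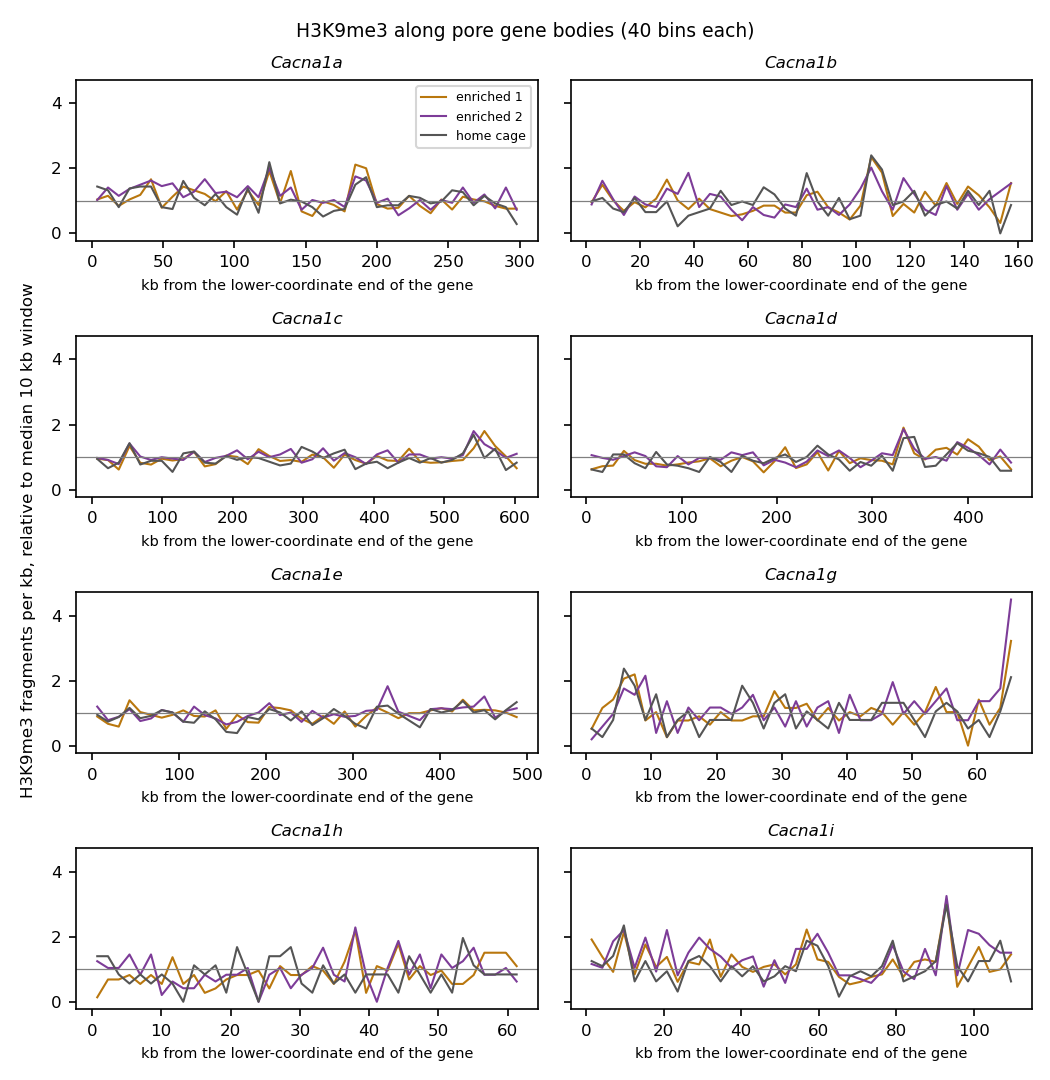
H3K9me3 along each pore gene body in 40 bins, as fragments per kb relative to the library's median 10 kb window, against the distance in kb from the lower-coordinate end of the gene. Orange and purple lines are enriched replicates 1 and 2 and the grey line is the home cage. The lines stay near 1 over most of each gene, with the highest peaks in the last bin of Cacna1g and 91620 bases into Cacna1i.

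Around transcription starts, within 2.5 kb on each side, the levels spread more widely. At the internal Cacna1e start, whose stretch holds neither motif, the level was 1.66 and 2.84 in the enriched libraries, against 1.83 in the home cage, on 39, 44 and 21 fragments. At the Cacna1b start it was 1.62 and 1.81 in the enriched libraries, against 1.30 in the home cage, and at the Cacna1i start 1.91 and 1.29 against 1.74. These compare with medians of 0.936 and 0.968 in the enriched libraries, against 0.869 in the home cage, over 32851 promoters. The internal start of Cacna1c lay at the other end, with 0.340 and 0.580 in the enriched libraries, against 0.609 in the home cage, on 8, 9 and 7 fragments. The Poisson intervals of the enriched and home-cage values overlapped at each of these starts, for example 2.06 to 3.81 in enriched replicate 2 against 1.13 to 2.79 in the home cage at Cacna1e.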

How the data were processed

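Per the file headers, the authors deposited whole-number counts of inclusion and skipping reads for each splicing event, beside their own p-values and FDRs, each computed on a KCl library and the control library of the same number. For ChIP the authors deposited coverage, a signal track whose values are all whole multiples of 1 step (tolerance 0.01), from which fragments of 207, 238 and 285 bases (enriched 1, enriched 2, home cage) were recovered. The submitters' processing notes name the build mm10 and the tools BWA 0.7.12, CASAVA 1.7, TopHat2 and MACS2. The event counter and its annotation are not given there, nor elsewhere in the labels or headers.

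Groups came from the sample titles. Starts were converted to count from 1. Events listed once in each table were tested over the whole table with edgeR 4.0.16 (R 4.3.3), quasi-likelihood. For splicing, both forms were fitted with terms for library, form and form in KCl, where each form averaged 1 read or more, and levels with an intercept and KCl, where both together did (TMM scaling). The p-values were adjusted by Benjamini-Hochberg, with a threshold of 0.05. H3K9me3 fragments, at most 2 per start, were counted by midpoint over RefSeq gene models averaging 20 or more, scaled over windows in the lower 75% of signal and tested with limma 3.58.1 and voom weights. In mutually exclusive pairs, cassette rows of the same exons showed which exon was counted as included. DESeq2 1.42.0, limma on log2 values with a pseudocount of 0.5, a replicate block, other filters, scalings and leaving out each library were alternatives.

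Every member and each of its events is named, with the 4 genes of each other list that have the smallest unadjusted p (for cell type markers, the summed level) and the 3 nearest genes, among those averaging 10 or more reads. The members and lists were chosen with earlier results of these data known. Intervals are at 95%, and a count of 0 is taken to allow 3 counts. Tables and figures were made in Python 3.11.15 with pandas 2.3.3, numpy 2.4.6, matplotlib 3.10.9 and scipy 1.17.1.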

Additional observations from a re-analysis of the deposited data

How the results depend on the processing

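At an adjusted p under 0.05 no pore gene event was called for splicing, and no pore gene for H3K9me3, under any alternative run that kept all libraries. Gene level calls numbered 4 with a replicate block (Cacna1b, Cacna1c, Cacna1e and Cacna1i), 1 with DESeq2 and 0 to 2 without one library. Event level calls numbered 8 with the block and 0 to 5 without one library. All were lower in KCl. The labels do not say what a replicate number shares. Deviations from the group means of samples with the same number correlated at 0.64 over 5773 genes and 0.27 over 4723 events. Over the whole tables the block gave 1235 genes, 1359 event levels and 167 splicing events, against 0 of each without it, DESeq2 gave 71, 101 and 11, and 749, 1291 and 928 had an unadjusted p under 0.05. For the Cacna1g exon pair, the log2 odds ratio of 0.02 was -0.22 with the block, -0.10 with DESeq2 and -0.11 with limma. Other reversals came from leaving out 1 library. Gene level for Cacna1d then ran from -3.05 to 2.85. Event level ran from -2.998 to 2.83 for the Cacna1d exon, from -2.24 to 0.84 for the 97-base Cacna1a exon and from -0.17 to 0.77 for the Cacna1c 5′ splice site. Splicing ran from -1.29 to 1.15 for the Cacna1g pair, from -4.45 to 0.49 and from -2.84 to 0.19 for the 36-base and 97-base Cacna1a exons, and from -1.47 to 2.13 for the 97-base Cacna1b exon. It ran from -2.40 to 0.11 for the Cacna1c 5′ splice site, from -1.91 to 1.47 for its 84-base exon, and from -4.92 to 1.60 and from -2.53 to 0.65 for the retained intron and the 90-base exon of Cacna1e. The H3K9me3 log2 ratio ran from -0.0089 to 0.13 for Cacna1c and from -0.0076 to 0.14 for Cacna1a without one enriched library, as values with no test. The cause of these differences was not tested. The home-cage library could not be left out. With library totals or DESeq2 size factors all 8 gene levels were still lower in KCl. Of the other values for single genes and events, 553 kept their direction and side of the threshold and 23 passed it. Depth limits the shares, of which 73 of 92 rest on fewer than 50 reads.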
